A study of Mus musculus with 42 samples.

Results

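The cultures described here came from 1 immortalized mouse aortic endothelial cell line and were sequenced after 48 hr with or without 10% plasma. They were chosen by their labels and by the 150 bp count columns, and are 4 of the 42 samples of the series. The 2 cultures with plasma (plasma alone, and plasma with platelets and macrophages, called all additions below) were set against the 2 without it (untreated, and platelets and macrophages alone). The study used such co-cultures to ask which blood cell types the splicing response of the endothelium required. The 4 cultures make a 2 by 2 factorial with 1 library per culture. According to the study's methods, the line was derived from the aorta of Cdh5(PAC)-CreERT2; Rosa26-mTmG mice in which tamoxifen labels Cdh5-expressing cells with eGFP; sorted eGFP+ cells were immortalized with a doxycycline-inducible lentiviral SV40 T antigen, and doxycycline was withdrawn from every culture before the additions. The plasma was prepared from C57BL/6J mice with EDTA, and bone-marrow-derived monocytes served as the macrophages. The methods name DMEM as the medium before the additions and as the medium that received plasma. No serum or growth supplement is named for this step, and whether the cultures without plasma held any is not stated. No age is given for these cultures, all 4 carry the same transgenes, and 1 line cannot show how far its response is shared by other endothelial cells.

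Plasma is the cell-free part of blood. It delivers lipoproteins, fatty acids bound to albumin, hormones, growth factors and clotting and complement proteins to the endothelium, the cell layer that lines vessels and that answers with secreted regulators of vessel tone, matrix and leukocyte adhesion. Cells sense the lipid part of this supply through nuclear receptors: PPARs respond to fatty acids and switch on their storage and oxidation, LXRs respond to oxidized sterols and switch on sterol export, and SREBP2 switches on cholesterol synthesis when sterol runs low.

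The libraries held 14662680 (untreated), 13975153 (plasma), 14049632 (platelets and macrophages) and 16394043 counts (all additions), and 14064 to 14680 genes had at least 1 count. The read file names in the header of the deposited table carry the same run prefix for all 4 cultures. Library numbers in those names place the untreated culture near the one with all additions and the other two next to each other, a split that cancels out of the effect of plasma but that cannot be told apart from the interaction of plasma with the added cells. Levels are given as FPKM, fragments per kilobase of effective length relative to the scaled library total. The error of a log2 fold-change is a standard error (SE) computed back from its test. It is the absolute log2 fold-change divided by the square root of the F statistic, and so adds nothing independent of the p-value.

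The endothelial label was checked against 18 markers, and all 18 were lower in each of the 4 cultures than in the library of sorted aortic endothelial cells described below, so the label is only partly borne out. Pecam1, the adhesion molecule CD31, was at 53.2, 81.7, 63.5 and 54.7 FPKM in the untreated, plasma, platelets and macrophages, and all additions cultures in that order. Icam2, Esam, Eng and Emcn lay between 9.90 and 49.5 FPKM. Other defining genes were low or nearly absent: Cdh5, the junctional VE-cadherin, stayed between 1.84 and 5.91 FPKM, while the VEGF receptors Kdr and Flt1, the transcription factors Erg and Sox17, Cldn5, Robo4 and Vwf were all below 1 FPKM. Scaled by library totals alone, the 2 pools of high flow carotid intima from mice given control IgG held 2775 to 2984 FPKM of Pecam1, 48.8 to 51.3 FPKM of Cdh5 and 519 to 526 FPKM of Vwf, though only 0.322 to 0.693 FPKM of Kdr, and the 1 library of Rbfox2 control aortic endothelial cells, sorted for CD31 and Icam2 after 7 days of culture, held 373 FPKM of Pecam1, 68.3 of Cdh5, 120.4 of Vwf and 9.50 of Kdr. None of the 16 markers tested passed the threshold for plasma in edgeR or DESeq2 and 1 was at an unadjusted p under 0.05, the nearest being Emcn at 22.6, 9.90, 49.5 and 22.2 FPKM (log2 fold-change -1.17 ± 0.29, adjusted p = 0.171). Of 12 smooth muscle and fibroblast markers some were above these low endothelial genes: Pdgfrb, a receptor of mural cells and fibroblasts, was at 30.6, 20.5, 35.998 and 20.1 FPKM, Smtn at 30.4, 47.97, 41.7 and 62.9 FPKM and Dpt at 7.33, 40.005, 20.04 and 10.1 FPKM, whereas Myh11, Des, Myocd and Thy1 were below 1 FPKM in each culture. None of the 8 of them tested passed for plasma in edgeR or DESeq2, with 3 at an unadjusted p under 0.05 (9.57% of all genes).

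**Figure D1:**
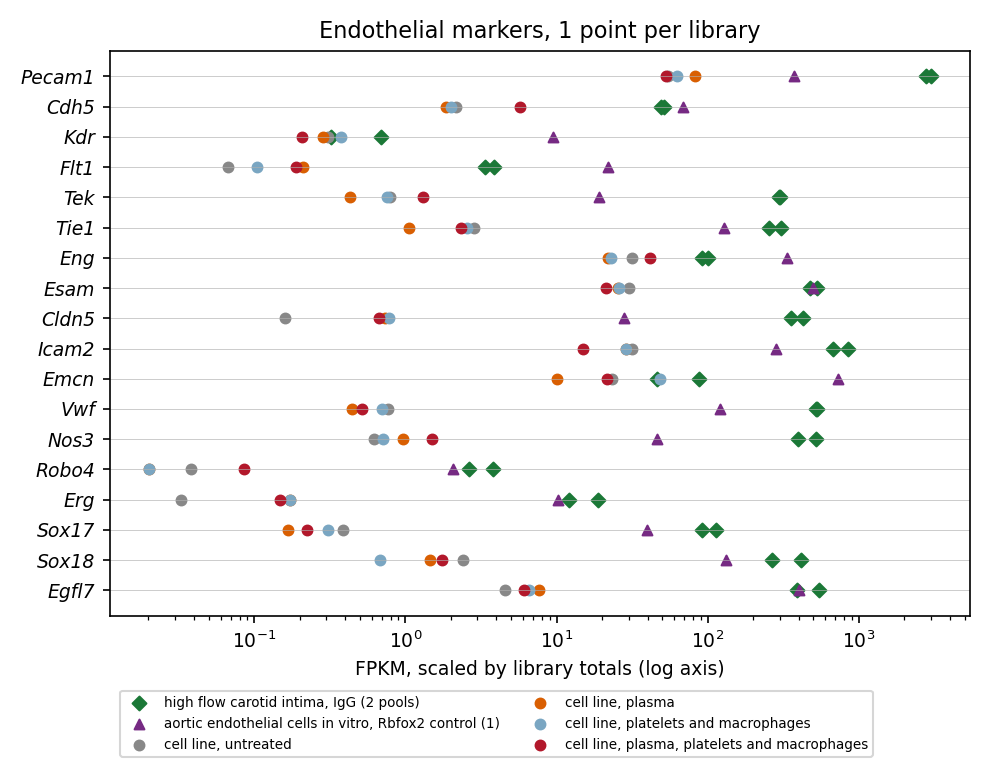
FPKM on a log axis, scaled by library totals, of 18 endothelial markers in the 4 cell line cultures (circles), in 1 library of aortic endothelial cells in vitro (triangles) and in 2 pools of high flow carotid intima under control IgG (diamonds), 1 point per library. Pecam1, Eng, Esam, Icam2 and Emcn have the highest levels in the line, each below its level in the in vitro library, and Flt1, Robo4, Erg and Sox17 lie below 1 FPKM in all 4 of its cultures.

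Most macrophage markers were higher with added cells, and platelet markers were so only in part. Of 18 macrophage and monocyte markers, 11 had no count in the untreated library and 8 none in the plasma library, against 0 and 1 in the 2 libraries with added cells. The summed level of the list was 20.5, 56.9, 424 and 337 CPM (counts relative to the scaled library total) in the same order of cultures. Lyz2 made up most of the sum in both cultures with added cells, and between these 6 of the 13 markers tested were higher and 7 lower with plasma: Itgam had 0, 0, 60 and 316 counts and Csf1r 2, 7, 253 and 130. Some members departed from the additions. Among them were Cd14 at 248, 693, 425 and 1355 counts, higher with plasma alone than with platelets and macrophages alone, and Cx3cr1 at 0, 1, 35 and 1. Lyz2, the myeloid lysozyme, was at 0.505, 0.386, 344 and 191 FPKM, and Tyrobp and Emr1 were at 0 in both cultures without added cells. Cd68, a lysosomal protein abundant in macrophages, was at 3.05, 7.02, 9.995 and 9.002 FPKM and so was detected in the line without macrophages. The platelet chemokine Pf4 was at 0.148, 0, 4.08 and 17.4 FPKM and Ppbp at 0, 0.151, 9.07 and 5.36 FPKM. The other platelet genes did not follow the additions: of the 13 markers in the list 7 had too few counts to test, Itga2b had 80, 171, 117 and 87 counts, Gp1ba 16, 19, 11 and 6 and Nrgn, also a neuronal gene, 164, 62, 30 and 18. The summed list was at 38.0, 66.1, 43.9 and 101 CPM, higher with plasma alone than with platelets and macrophages alone, and Itgb3, described below, had the most counts of its members in each culture. Plasma alone thus brought neither Lyz2 nor Pf4 above the level of the untreated culture, and 0 of the neutrophil, erythroid and lymphocyte markers were abundant enough to test. Summed neutrophil markers reached 18.8 CPM with all additions and at most 1.09 in the other cultures, and their part in the results below was not tested.

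Plasma was followed by large changes in a small set of genes, with the proliferins, osteopontin, cyclooxygenase 1 and fatty acid handling genes among those that rose, and elastin, connective tissue growth factor, endothelin 1, angiopoietin 2 and sterol export genes among those that fell. In an additive edgeR quasi-likelihood fit of plasma and added cells, 64 of 12352 genes tested passed an adjusted p of 0.05, which is 0.518%: 31 rose (0.251%) and 33 fell (0.267%) with plasma. The smallest absolute log2 fold-change among the 64 was 1.54, and in 62 of them, all but Ccl6 and Apoe, the 2 plasma libraries did not overlap the 2 others; of all tested genes 17.8% lay above and 19.2% below without overlap. At an unadjusted p under 0.05 there were 1182 genes (9.57%). Each culture is a single library, so a gene's own spread in this fit is the departure of the 2 additions from additivity, with 1 residual degree of freedom. The fit draws that spread toward the spread of the other genes, with 6.45 prior degrees of freedom. The p-values therefore rest largely on spread shared among genes, and not on a spread between repeated cultures. A 2 against 2 exact permutation test of a single gene, two-sided, cannot go below p = 0.333. With plasma as the only factor edgeR called 0 genes, with 887 at an unadjusted p under 0.05, whereas DESeq2 with the additive design called 309 of 12396 (2.49%). In a fit of all 30 libraries of 150 bp reads, whose spread comes from replicated carotid pools, 13 of the 64 were called and all 64 had the same sign. Ptgs1, Gda and Abca1 were among the 13 (adjusted p = 0.00130, 7.2e-05 and 0.0333), whereas Prl2c2, Spp1, Fabp4, Pparg, Ctgf and Eln were not (adjusted p = 0.0576, 0.566, 0.694, 1, 0.345 and 0.260). Leaving out the untreated culture or that with platelets and macrophages, with plasma as the only factor, left 0 calls, leaving out all additions left 6 higher and 0 lower, and leaving out the plasma culture gave 44 higher and 60 lower. In bulk RNA a lower level can mean fewer cells of a type or less RNA per cell, and these cannot be told apart.

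**Figure D2:**
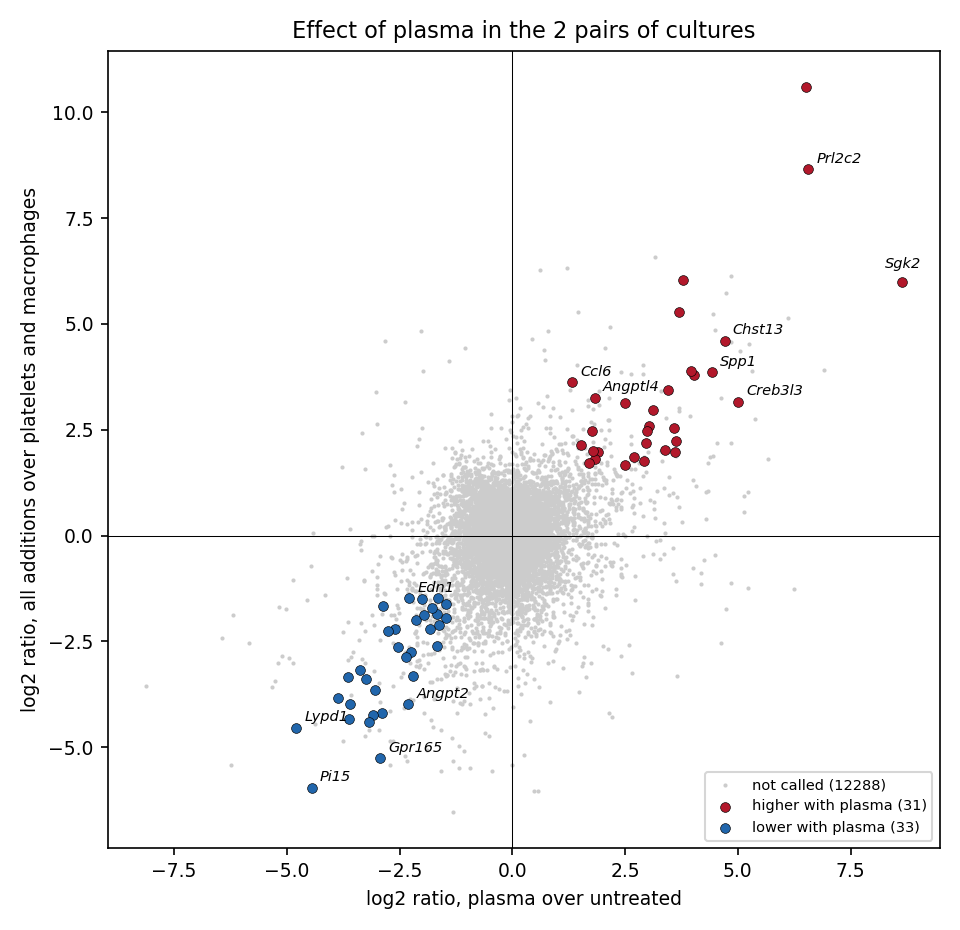
Log2 ratio of each tested gene for plasma over untreated (x axis) against all additions over platelets and macrophages (y axis), 1 point per gene, from scaled counts with a pseudocount of 0.5. The 31 genes called higher (red) and 33 called lower (blue) lie in the 2 quadrants where both pairs agree in sign, and most of the 12352 tested genes lie near 0 in both.

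Over all tested genes the median log2 ratio was 0.00 in the pair without added cells and -0.01 in the pair with them, and 54.1% of genes moved in the same direction in both. A change of at least 2-fold was seen in 1539 genes in the first pair and 2109 in the second, and 598 reached it in the same direction in both pairs (248 higher, 350 lower). The coefficient for platelets and macrophages in the same fit passed for 16 genes, all of them higher (0.13% of those tested). Both coefficients use the same untreated and all additions libraries.

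Proliferins are placental hormones of the prolactin family that act on vessel growth and are also made by dividing fibroblasts. Prl2c2 (chr13:13088393-13097659 on the mm9 minus strand) headed the genes that rose, with 2, 220, 34 and 16137 counts in the untreated, plasma, platelets and macrophages, and all additions libraries (log2 fold-change 8.43 ± 0.46, adjusted p = 0.00226). In the pair without added cells the ratio was 118-fold with a 95% counting interval of 32.2 to 978, since the untreated library held only 2 counts. The level with all additions stood far above the rest, and the coefficient for platelets and macrophages was a log2 fold-change of 5.83 (adjusted p = 0.00755). Its copies cannot be told apart well by reads: the Prl2c2 and Prl2c3 transcripts share 99.5% of 850 aligned bases, and Prl2c2 and Prl2c5 96.7% of 843. Summed over Prl2c2, Prl2c3, Prl2c4 and Prl2c5 the counts were 2, 275, 34 and 17076, the same order of cultures. Prl2c4 had 0 counts in both cultures without plasma, 42 with plasma and 897 with all additions, which is at least 14.98-fold and at least 258-fold higher than a floor of 3 counts per library. It passed in edgeR (log2 fold-change 11.7 ± 0.93, adjusted p = 0.00969) but not in DESeq2 (adjusted p = 0.326).

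Sgk2, a kinase related to the serum- and glucocorticoid-induced kinase, had 0, 186, 13 and 989 counts in the same order (log2 fold-change 6.57 ± 0.66, adjusted p = 0.0122), at least 66.4-fold higher with plasma than the floor of 3 counts in the untreated library. Its relative Sgk1 was at 24.4, 54.9, 21.8 and 98.4 FPKM (log2 fold-change 1.67 ± 0.31, adjusted p = 0.0856) and missed the threshold. Chst13, a sulfotransferase of chondroitin chains, rose from 0.700 and 1.59 FPKM without plasma to 18.8 and 39.3 FPKM with it (log2 fold-change 4.68 ± 0.39, adjusted p = 0.00853). For both genes the plasma cultures were well clear of the others whether or not cells were added.

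Spp1 (chr5:104864137-104870069) encodes osteopontin, a secreted phosphoprotein of bone and of activated macrophages. It was at 43.5, 933, 599 and 8658 FPKM and rose with plasma by 4.14 ± 0.39 on the log2 scale (adjusted p = 0.00969). The coefficient for platelets and macrophages was a log2 fold-change of 3.50 (adjusted p = 0.0262), platelets and macrophages alone came close to plasma alone, and the culture with all additions held the most. Macrophage markers were higher in both cultures with added cells, and their part in this level was not tested; in the pair without added cells, where Tyrobp and Emr1 were at 0, Spp1 was 21.4-fold higher with plasma. Ptgs1 (chr2:36085946-36107792), the cyclooxygenase that makes prostaglandins constitutively, stood at 3.64, 57.2, 12.9 and 190.4 FPKM (log2 fold-change 3.93 ± 0.26, adjusted p = 0.00460). Its inducible relative Ptgs2 was at 1.32, 3.00, 14.4 and 35.4 FPKM (log2 fold-change 1.24 ± 0.26, adjusted p = 0.103). It was higher with plasma in both pairs but missed the threshold. Ptgs2 was in the list of inflammatory genes, of which 0 of 19 tested passed, where 4 had an unadjusted p under 0.05 and 3 passed in DESeq2.

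Ivl, involucrin of the keratinocyte envelope, was at 1.46, 24.04, 6.23 and 86.7 FPKM (log2 fold-change 3.91 ± 0.29, adjusted p = 0.00709). Gda, guanine deaminase of purine breakdown, was at 0.113, 1.53, 0.0964 and 3.998 FPKM (log2 fold-change 4.54 ± 0.62, adjusted p = 0.0367). In both genes the plasma libraries were separate from the others. Kbtbd11, Serpinb9e and Aqp7 were also among the 12 largest ratios but missed the threshold. Kbtbd11 had 1, 53, 4 and 119 counts (adjusted p = 0.0583), Serpinb9e 0, 56, 6 and 112 (adjusted p = 0.100) and Aqp7, a glycerol channel of fat cells, 8, 91, 4 and 54 (adjusted p = 0.101).

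**Figure D3:**
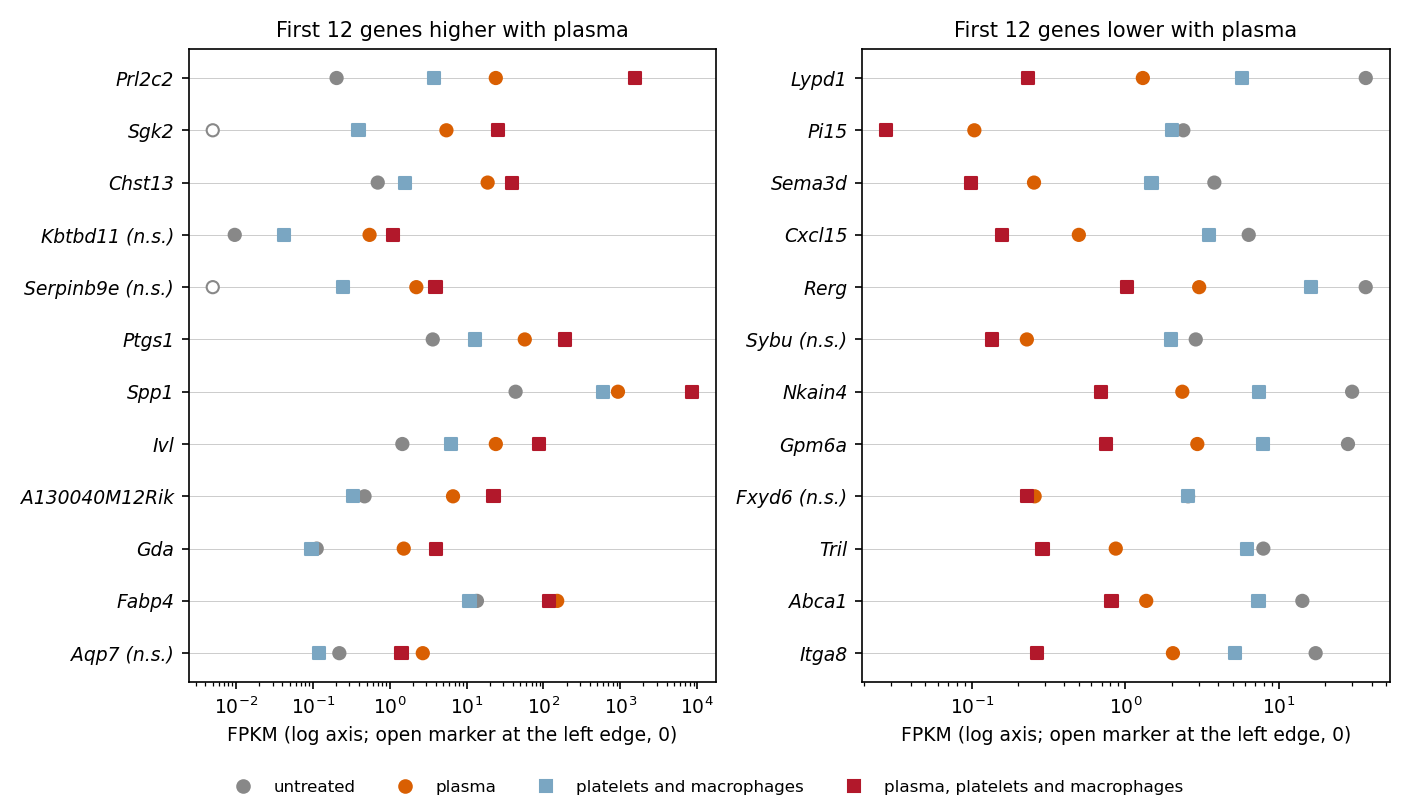
FPKM on a log axis of the 12 genes with the largest ratio common to both pairs in each direction, 1 point per culture, an open marker standing for 0 counts and n.s. for a gene that missed an adjusted p of 0.05. In each of the 24 genes the 2 cultures with plasma lie on one side of the 2 without it.

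Genes of fatty acid uptake, storage and oxidation were among those that rose. Fabp4 (chr3:10204347-10208576), a cytosolic fatty acid carrier and a classical PPAR target, was at 13.7, 151, 10.9 and 119 FPKM (log2 fold-change 3.46 ± 0.31, adjusted p = 0.00969), nearly the same in the 2 cultures with plasma. Angptl4, a secreted inhibitor of lipoprotein lipase, was at 79.5, 282, 75.8 and 727 FPKM (log2 fold-change 2.54 ± 0.39, adjusted p = 0.0483). Pdk4, the kinase that turns off pyruvate dehydrogenase when fat is burned, was at 30.7, 107, 29.6 and 119 FPKM (log2 fold-change 1.90 ± 0.24, adjusted p = 0.0311). Angptl4 was highest with all additions, and the levels of Pdk4 differed little between the 2 cultures with plasma. Of the 14 PPAR target genes tested, these 3 rose and 0 fell (0.251% and 0.267% of all genes); 10 were higher in both pairs and 0 lower in both, against 26.7% and 27.4% of all genes, and the median was 0.83 against -0.01 over all genes tested. Plin2, the coat of lipid droplets, was at 59.7, 108, 71.1 and 283 FPKM (log2 fold-change 1.43 ± 0.32, adjusted p = 0.130) and missed the threshold.

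Further lipid genes outside that list passed, and are named because they passed. Pparg, the nuclear receptor of fat cells, was at 35.4, 201, 56.2 and 177 FPKM (log2 fold-change 2.08 ± 0.29, adjusted p = 0.0395). Ephx2, the soluble epoxide hydrolase that breaks down epoxy fatty acids, was at 65.4, 371, 71.5 and 628 FPKM (log2 fold-change 2.82 ± 0.29, adjusted p = 0.0140). In both genes the 2 plasma cultures were clear of the others. Gpd1, which makes glycerol 3-phosphate, was at 3.44, 26.8, 2.83 and 12.97 FPKM (log2 fold-change 2.58 ± 0.35, adjusted p = 0.0359). Creb3l3, a membrane-bound transcription factor of liver lipid metabolism, was at 0.216, 7.39, 1.26 and 11.4 FPKM (log2 fold-change 3.97 ± 0.58, adjusted p = 0.0463), and the acyl-CoA synthetase Acsbg1 at 0.551, 4.59, 3.28 and 19.98 FPKM (log2 fold-change 2.80 ± 0.38, adjusted p = 0.0358). These were low-level genes in the untreated culture. In windows of 250 bases before to 50 after RefSeq start sites (GRCm38.p6), the PPAR-type direct repeat, 2 copies of AGGNCA with 1 base between them on either strand, was found in 0 of 10 list members with a window and in 0.451% of all genes.

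The other genes that rose coded for secreted and matrix proteins and for a mixed set of cellular proteins. Mmp3, the protease stromelysin 1, was at 16.4, 171, 8.77 and 35.8 FPKM (log2 fold-change 2.72 ± 0.37, adjusted p = 0.0358) and was the sole call among 9 matrix protease genes tested. Of these 9, 6 were at an unadjusted p under 0.05 (9.57% of all genes), and DESeq2 called 1. Col18a1, the precursor of the angiogenesis inhibitor endostatin, was at 8.85, 57.8, 33.8 and 122 FPKM (log2 fold-change 2.28 ± 0.30, adjusted p = 0.0311). Efemp1, an elastic fibre protein, was at 116, 872, 166 and 565 FPKM (log2 fold-change 2.34 ± 0.36, adjusted p = 0.0483). For Mmp3 and Efemp1 the culture with plasma alone held the most. Igfbp4, a binding protein of insulin-like growth factors, was at 6.41, 77.9, 15.3 and 59.8 FPKM, and Tnfsf11, the osteoclast cytokine RANKL, at 6.68, 83.3, 8.09 and 38.4 FPKM (adjusted p = 0.0464 and 0.0311). The chemokine gene Ccl6 passed (log2 fold-change 3.49 ± 0.45, adjusted p = 0.0311) at 0.0510, 0.164, 9.999 and 124 FPKM. Nearly all of its counts came from the 2 cultures with added cells, where macrophage markers were also present, and without the all additions library the log2 fold-change of Ccl6 was -4.88. Among genes of the cell interior, the neuronal immediate early gene Arc was at 3.10, 26.9, 2.37 and 18.6 FPKM, the intermediate filament Krt19 at 4.83, 38.7, 8.27 and 45.7 FPKM, the LIM protein Lmo1 at 3.77, 45.7, 9.63 and 56.03 FPKM and the zinc importer Slc39a10 at 20.4, 58.99, 24.3 and 107 FPKM. In each of these the 2 plasma cultures were above both others. Tsc22d1, Mpp6, Mmd, Dtx4 and the predicted gene A130040M12Rik complete the set of 31, with log2 fold-changes of 1.71, 1.83, 2.12, 1.94 and 4.92.

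Lypd1, a small GPI-anchored protein that modulates acetylcholine receptors, had the largest fall common to both pairs, at 36.7, 1.30, 5.73 and 0.231 FPKM in the untreated, plasma, platelets and macrophages, and all additions cultures (log2 fold-change -4.73 ± 0.41, adjusted p = 0.00885). Pi15, a secreted peptidase inhibitor, had 245, 10, 187 and 3 counts (log2 fold-change -5.15 ± 0.63, adjusted p = 0.0284). With only 3 counts in the all additions library, its ratio to platelets and macrophages was 72.1-fold with a 95% counting interval of 24.3 to 353. Sema3d, a secreted guidance cue of vessels and nerves, was at 3.79, 0.254, 1.48 and 0.0984 FPKM (log2 fold-change -3.89 ± 0.48, adjusted p = 0.0284). Cxcl15, the lung chemokine lungkine, was at 6.35, 0.498, 3.51 and 0.158 FPKM (log2 fold-change -3.99 ± 0.61, adjusted p = 0.0483). Rerg, a Ras-like growth inhibitor, was at 36.6, 3.02, 16.2 and 1.02 FPKM (log2 fold-change -3.78 ± 0.35, adjusted p = 0.00969). All of these were lowest with all additions, and in each the culture with platelets and macrophages lay between the untreated and the plasma cultures.

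Itga8, the alpha 8 integrin of mesenchymal cells, was at 17.3, 2.04, 5.18 and 0.267 FPKM (log2 fold-change -3.61 ± 0.40, adjusted p = 0.0183). Tril, an accessory protein of Toll-like receptor 4, was at 7.90, 0.866, 6.22 and 0.289 FPKM (log2 fold-change -3.77 ± 0.45, adjusted p = 0.0281). Gpm6a, a neuronal membrane glycoprotein, was at 28.1, 2.94, 7.87 and 0.747 FPKM (log2 fold-change -3.32 ± 0.33, adjusted p = 0.0122). Nkain4, which binds the sodium pump, was at 29.9, 2.35, 7.45 and 0.696 FPKM (log2 fold-change -3.55 ± 0.52, adjusted p = 0.0463), and the receptor Gpr165 at 18.6, 2.43, 8.21 and 0.206 FPKM (log2 fold-change -3.91 ± 0.59, adjusted p = 0.0483). The order of the 4 cultures was the same in these 5 genes. Sybu and Fxyd6 had ratios of this size in both pairs but missed the threshold, with 121, 9, 76 and 6 counts (adjusted p = 0.0779) and 64, 6, 58 and 6 counts (adjusted p = 0.123).

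Among regulators of vessel tone and growth, Edn1, Angpt2, Cx3cl1 and Bmp4 fell. Edn1 (chr13:42396639-42403358), the vasoconstrictor endothelin 1, was at 67.1, 13.8, 26.6 and 9.47 FPKM (log2 fold-change -1.89 ± 0.29, adjusted p = 0.0483). Angpt2 (chr8:18690263-18741562), a Tie2 ligand that loosens the endothelium, was at 43.6, 8.78, 20.9 and 1.32 FPKM (log2 fold-change -3.10 ± 0.44, adjusted p = 0.0443). Cx3cl1, the membrane-bound chemokine fractalkine, was at 28.5, 9.25, 25.8 and 5.94 FPKM (log2 fold-change -1.87 ± 0.28, adjusted p = 0.0464). These were 3 of the 10 flow-responsive endothelial genes tested, of which 0 rose (0.267% of all genes fell); 2 were higher and 5 lower in both pairs (26.7% and 27.4% of all genes), the list's median log2 fold-change was -0.15, and Klf2 stayed between 11.1 and 17.1 FPKM. Bmp4, a growth factor of the TGF-beta family, was at 243, 55.2, 148 and 37.2 FPKM (log2 fold-change -2.07 ± 0.24, adjusted p = 0.0249), whereas 0 of 13 tested targets of BMP signalling passed, with 3 at an unadjusted p under 0.05. F2rl1, the protease-activated receptor 2, was at 19.96, 2.94, 10.5 and 2.18 FPKM (log2 fold-change -2.51 ± 0.35, adjusted p = 0.0395) and was the sole call among 14 coagulation genes tested. Of these 14, 3 were at an unadjusted p under 0.05 (9.57% of all genes), and DESeq2 called 2.

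Ctgf (chr10:24315248-24318489), a matricellular protein induced by YAP/TAZ and by TGF-beta, was among the most abundant genes that fell, at 1324, 217, 1355 and 293 FPKM (log2 fold-change -2.41 ± 0.32, adjusted p = 0.0341). It was the only 1 of 10 YAP/TAZ targets tested to pass, and 7 were lower in both pairs and 0 higher in both (27.4% and 26.7% of all genes), and the list's median was -0.59 on the log2 scale. Cyr61, its close relative, was at 665, 349.7, 566 and 490.01 FPKM (adjusted p = 0.681), and its plasma and other cultures did not overlap either. The TEAD motif GGAATG, searched on both strands of the same RefSeq windows, was found in 6 of the 7 members with a window (Cyr61, Ankrd1, Amotl2, Axl, Lats2 and Wwc2) and in 16.6% of all genes. Ctgf had no window, so the motif count covers only members that did not pass. Ctgf was also the only call among 13 TGF-beta targets, of which 5 were at an unadjusted p under 0.05 (9.57% of all genes) and 1 passed in DESeq2.

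Matrix genes changed in both directions. Eln (chr5:135179651-135223111), the core of elastic fibres, was at 48.5, 8.42, 75.1 and 12.1 FPKM (log2 fold-change -2.58 ± 0.24, adjusted p = 0.00969) and Lum, a small proteoglycan of collagen fibrils, at 104, 22.2, 55.2 and 8.15 FPKM (log2 fold-change -2.49 ± 0.26, adjusted p = 0.0140). Eln was slightly higher with platelets and macrophages than untreated, unlike Lum. Dcn, a proteoglycan akin to lumican, was at 96.8, 13.6, 39.5 and 15.04 FPKM (log2 fold-change -2.11 ± 0.37, adjusted p = 0.0779) and the matricellular protein Thbs1 at 611, 228, 545 and 171 FPKM (log2 fold-change -1.55 ± 0.31, adjusted p = 0.100), both short of the threshold. Of 23 other matrix genes tested, 2 fell and 0 rose, 7 were lower and 3 higher in both pairs (27.4% and 26.7% of all genes), and the median was 0.01. Of these 23, 8 were at an unadjusted p under 0.05 (9.57% of all genes), and 6 passed in DESeq2 (2.49% of all genes). Among 13 collagens Col18a1 rose and Col12a1 fell, from 7.91 and 10.6 FPKM to 2.54 and 3.82 FPKM.

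A pair of sterol export genes fell. Abca1 (chr4:53043659-53172767), the pump that loads cholesterol onto apolipoprotein A1, was at 14.2, 1.37, 7.35 and 0.812 FPKM (log2 fold-change -3.28 ± 0.27, adjusted p = 0.00853), and Apoe, an apolipoprotein secreted by macrophages and liver, at 501, 180.04, 166 and 42.95 FPKM (log2 fold-change -1.71 ± 0.25, adjusted p = 0.0465). Apoe was also lower with platelets and macrophages than untreated. They were 2 of 8 LXR targets tested, of which 0 rose (0.267% of all genes fell). Of the 8, 3 were higher and 4 lower in both pairs (26.7% and 27.4% of all genes), and the list's median was -0.28. An unadjusted p under 0.05 was found for 4 of them (9.57% of all genes), and 3 passed in DESeq2 (2.49% of all genes). Mylip, which degrades the LDL receptor, was at 10.6, 3.58, 6.54 and 1.44 FPKM (log2 fold-change -1.87 ± 0.38, adjusted p = 0.101). None of 24 genes of cholesterol synthesis and uptake passed in edgeR, 7 had an unadjusted p under 0.05 (9.57% of all genes) and 1 passed in DESeq2; 19 were lower and 0 higher in both pairs (27.4% and 26.7% of all genes), with a median of -0.26 without added cells and -0.87 with them. The summed level of the list was 1760.5, 1579, 4011 and 2259 CPM in the same order of cultures, so the addition of cells moved it more than plasma alone did. Of 13 fatty acid synthesis genes 0 passed, where 2 had an unadjusted p under 0.05 and 1 passed in DESeq2; Scd2, a fatty acid desaturase, was nearest (log2 fold-change -1.38 ± 0.27, adjusted p = 0.0911).

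Of the complement genes 1 passed. C1s, a protease of the first complement component, was at 17.7, 4.57, 27.2 and 7.35 FPKM (log2 fold-change -1.92 ± 0.29, adjusted p = 0.0465). C1ra, its partner, was at 65.4, 27.2, 66.04 and 23.6 FPKM (log2 fold-change -1.38 ± 0.24, adjusted p = 0.0709). Of 11 complement genes tested C1s fell and 0 rose, 8 were lower and 0 higher in both pairs (27.4% and 26.7% of all genes), and the median was -0.81. Of these 11, 6 were at an unadjusted p under 0.05 (9.57% of all genes), and 3 passed in DESeq2 (2.49% of all genes). The remaining genes that fell were Cyp2s1, Cdo1, Popdc3, Rcan2, Mtss1, Gcnt1, Heph, Bves, Myh10, Gpr176 and Smpd3, with log2 fold-changes between -3.51 and -1.54. Cdo1, the cysteine dioxygenase of taurine synthesis, was at 209.6, 25.5, 95.04 and 7.51 FPKM and Gcnt1, an O-glycan branching enzyme, at 200.3, 62.6, 146 and 23.97 FPKM. Popdc3 and Bves, both Popeye domain proteins of muscle, fell together, at 76.1, 16.4, 38.1 and 3.79 FPKM and 95.8, 30.2, 49.3 and 13.7 FPKM.

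Mitotic genes were higher with plasma without passing. All 24 genes of the mitosis list were higher in both pairs and had both plasma libraries above both others, against 26.7% and 17.8% of all genes, and 22 were at an unadjusted p under 0.05 (9.57% of all genes). The median log2 fold-change was 0.87 (0.93 without and 0.93 with added cells), the range 0.24 to 1.31, and the smallest adjusted p 0.0886; DESeq2 called 8 of the 24 (2.49% of all genes). Cdc20, the activator of the anaphase-promoting complex, was at 27.01, 79.8, 39.5 and 82.7 FPKM (log2 fold-change 1.31 ± 0.25, adjusted p = 0.0886). Aurka, the centrosomal kinase, was at 18.3, 44.03, 28.1 and 63.3 FPKM (log2 fold-change 1.22 ± 0.23, adjusted p = 0.0886). The log2 ratios of the pairs without and with added cells were 1.56 and 1.07 for Cdc20 and 1.26 and 1.17 for Aurka. The kinetochore motor Cenpe was at 5.78, 12.8, 7.97 and 19.2 FPKM and its partner Cenpf at 5.80, 13.7, 7.35 and 15.6 FPKM (adjusted p = 0.0886 and 0.0970). Of 25 DNA replication genes tested, 0 passed, Rrm2 alone had an unadjusted p under 0.05 and passed in DESeq2, 4 were higher and 14 lower in both pairs (26.7% and 27.4% of all genes), and the median was -0.19.

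Promoters of late cell cycle genes are known for CCAAT boxes, bound by NF-Y, and for the CHR element TTTGAA, bound by the DREAM and MYB-MuvB complexes. The 130 bases before the RefSeq start site (GRCm38.p6) are shown for the 4 mitosis genes with the smallest adjusted p, 5′ to 3′ on the coding strand, because every member of the list was higher in both pairs, though none passed; capitals mark CCAAT and TTTGAA on the printed strand.
Aurka, chr2:172370571-172370700, minus strand: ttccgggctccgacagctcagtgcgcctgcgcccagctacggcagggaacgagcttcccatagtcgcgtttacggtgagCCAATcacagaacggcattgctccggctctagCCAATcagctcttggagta
Cdc20, chr4:118437344-118437473, minus strand: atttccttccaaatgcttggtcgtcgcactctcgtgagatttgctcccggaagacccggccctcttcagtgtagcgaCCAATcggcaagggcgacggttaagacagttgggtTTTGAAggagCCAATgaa
Cenpe, chr3:135212433-135212562, plus strand: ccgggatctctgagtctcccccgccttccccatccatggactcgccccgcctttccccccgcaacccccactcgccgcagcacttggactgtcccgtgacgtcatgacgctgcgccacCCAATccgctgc
Cenpf, chr1:189688087-189688216, minus strand: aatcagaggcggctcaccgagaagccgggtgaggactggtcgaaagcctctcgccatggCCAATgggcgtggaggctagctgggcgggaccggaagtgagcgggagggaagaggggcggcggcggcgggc
In the windows of 300 bases and on both strands, CCAAT was found in 19 of the 22 mitosis genes with a window (86.4%) and in 41.1% of all genes, and TTTGAA in 15 of 22 (68.2%) and in 20.2% of all genes. Cdc20 carried both within the last 53 bases before its start site. Among genes called higher with plasma CCAAT was found in 12 of 23 and TTTGAA in 8 of 23, and among those called lower in 7 of 19 and 3 of 19. In the 4 printed promoters no CCAAT match overlapped a TTTGAA match, and a match is a description of the letters alone.

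Glycolysis and hypoxia genes were also higher without passing. Of 23 tested, 12 were at an unadjusted p under 0.05, 20 were higher and 0 lower in both pairs (26.7% and 27.4% of all genes), the median was 0.72, and the smallest adjusted p was that of Slc16a3, the lactate exporter MCT4, at 12.2, 28.2, 33.6 and 129 FPKM (log2 fold-change 1.58 ± 0.27, adjusted p = 0.0734). Egln3, an oxygen-sensing prolyl hydroxylase, was at 4.51, 12.2, 9.12 and 33.3 FPKM (log2 fold-change 1.66 ± 0.30, adjusted p = 0.0848). Pgk1, a glycolytic kinase, was at 203, 347, 367 and 877 FPKM and so was also higher with platelets and macrophages than untreated. In this list 9 genes had both plasma libraries above both others, as had 17.8% of all genes. The summed list stood at 5836, 10028, 10349 and 20716 CPM, in the same order. DESeq2 called 6 of the 23 (2.49% of all genes), and those 6 were higher.

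**Figure D4:**
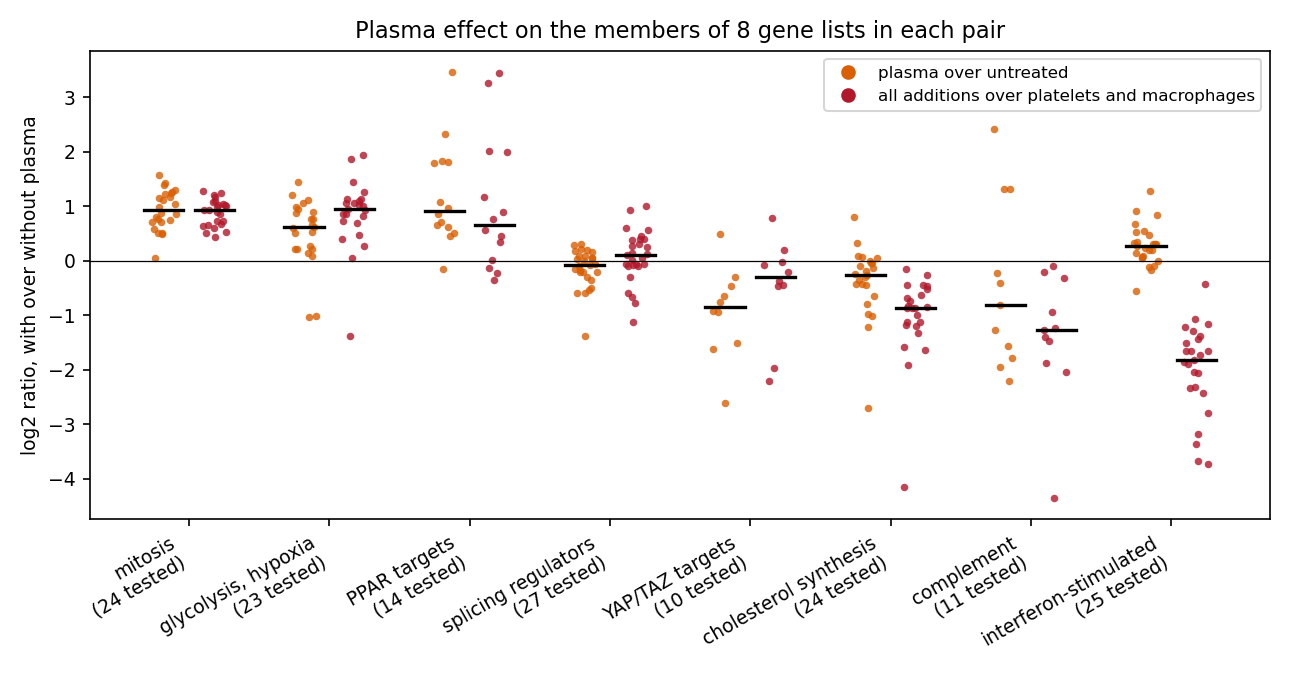
Log2 ratio with over without plasma of each tested member of 8 gene lists, for the pair without added cells (orange) and the pair with platelets and macrophages (red), 1 point per gene and a bar at the median. Mitosis members are above 0 in both pairs with medians of 0.93, splicing regulators are centred near 0, and interferon-stimulated genes have a median of 0.27 in the first pair and -1.82 in the second.

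In the remaining lists few genes passed. Slc39a10 was the 1 of 9 genes of metal response to rise, with 2 higher and 6 lower in both pairs (26.7% and 27.4% of all genes), and Angpt2 the 1 of 16 angiogenesis genes to fall, with 8 higher and 7 lower. Of 8 glucocorticoid targets 0 passed, 3 were at an unadjusted p under 0.05 and 6 were higher and 0 lower in both pairs, the median being 0.62 on the log2 scale, and 1 passed in DESeq2. In edgeR 0 passed among 17 serum response, 15 immediate early, 12 FOXO and 17 ATF4 targets, where 3, 2, 5 and 1 were at an unadjusted p under 0.05 (9.57% of all genes) and 0, 1, 1 and 1 passed in DESeq2. Among 15 p53 targets, 14 genes of the unfolded protein response and 11 NRF2 targets 0 passed in edgeR or DESeq2 and 0 were at an unadjusted p under 0.05. Plasma proteins of hepatocytes were tested for 2 of 12 genes, and 0 passed in edgeR or DESeq2, with 1 at an unadjusted p under 0.05.

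Whether plasma acted differently with and without platelets and macrophages was asked by an interaction contrast in a fit of all 30 libraries of 150 bp reads, where the spread comes from replicated carotid pools and the cultures are assumed to vary like them. With edgeR 0 of 14810 genes passed (0%), 562 were at an unadjusted p under 0.05 (3.79%), and 12 passed in DESeq2. Among the genes with the smallest p, Cd34, a sialomucin of endothelium and progenitors, was at 63.5, 243, 92.1 and 34.5 FPKM, higher with plasma alone and lower with plasma where cells were added (interaction log2 -3.39, unadjusted p = 9.58e-05, adjusted p = 0.473). Prkch, a protein kinase C, was at 1.42, 0.715, 0.897 and 2.15 FPKM with the opposite signs (adjusted p = 0.554). Rps12 was at 158, 64.4, 52.5 and 162 FPKM (adjusted p = 0.554), and as a ribosomal protein gene with many processed copies its reads may be shared. The other two of the first 5 were predicted genes.

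Interferon-stimulated genes, the antiviral set switched on by interferons, had opposite signs in the 2 pairs. Of 25 tested, 20 were higher with plasma without added cells and lower with plasma where cells were added (23.2% of all genes), 20 being higher in the pair without cells (49.9% of all genes) and all 25 lower in the pair with cells (50.6%). The median level was 48.2, 55.0, 79.0 and 18.01 FPKM in the order above. The low value was thus that of a single library, the one with all additions, in 25 of 25 genes relative to platelets and macrophages. Ifit3, an antiviral effector, was at 311, 355, 497 and 37.1 FPKM, and Irf7 at 70.5, 84.8, 125 and 18.01 FPKM. Bst2, or tetherin, was the member nearest the threshold for plasma at 514, 351, 463 and 208 FPKM (log2 fold-change -0.85 ± 0.26, adjusted p = 0.287). At an unadjusted p under 0.05 the interaction held for 13 of the 25 (3.79% of all genes), the smallest adjusted p being 0.639, so no member passed; for plasma itself 2 of the 25 had an unadjusted p under 0.05 and 0 passed in DESeq2.

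**Figure D5:**
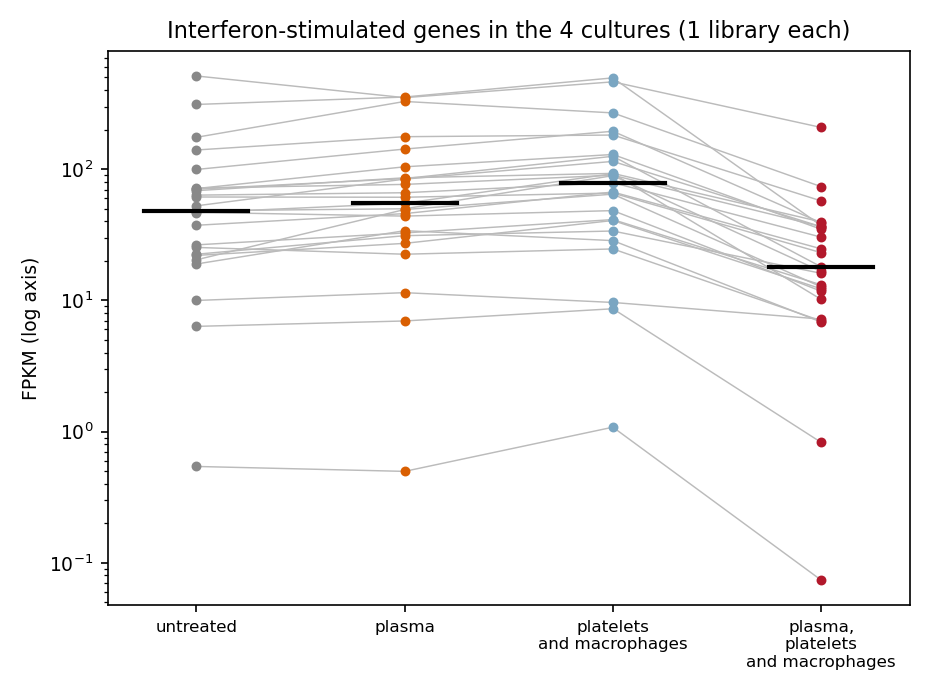
FPKM on a log axis of the 25 interferon-stimulated genes in the 4 cultures, 1 library each, with grey lines joining a gene across cultures and black bars at the medians. The medians are 48.2, 55.0, 79.0 and 18.01 FPKM from left to right, and the culture with all additions is lowest.

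Fn1 and Rbfox2, both followed by the study, did not pass at the level of the whole gene. The study followed Fn1 by inclusion of its EIIIA and EIIIB exons and reported more EIIIA inclusion with plasma. Gene-level counts cannot show exon inclusion. For Rbfox2 the study reported only modest RNA changes in its co-cultures. Fn1, fibronectin, was at 519, 221, 479 and 329.9 FPKM (log2 fold-change -0.88 ± 0.35, adjusted p = 0.457) and Rbfox2, the splicing factor, at 8.002, 7.57, 7.57 and 11.5 FPKM (log2 fold-change 0.26 ± 0.27, adjusted p = 0.916). Fn1 was lower with plasma in both pairs, while Rbfox2 was highest with all additions. Of 27 splicing regulators tested 0 passed by edgeR or DESeq2, 2 were at an unadjusted p under 0.05, 9 were higher and 9 lower in both pairs, and the median log2 fold-change was 0.00. Cd68 and Pf4, markers of the added cells, gave log2 fold-change 0.50 ± 0.54, adjusted p = 0.920 and log2 fold-change 1.65 ± 1.03, adjusted p = 0.772. Cd14, a monocyte receptor that other cells also make, was at 12.1, 36.1, 22.8 and 62.8 FPKM (log2 fold-change 1.52 ± 0.27, adjusted p = 0.0779) and was higher with plasma with or without macrophages. Itgb3, the beta 3 integrin of platelets and of spread endothelium, was at 3.60, 8.53, 3.80 and 14.3 FPKM (log2 fold-change 1.58 ± 0.30, adjusted p = 0.0886).

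The 64 genes were set beside the change of the carotid intima from high to low flow under control IgG, which shares no library with the line (2 pools each, 48 hr after partial ligation of the carotid, C57BL/6J mice, several arteries a pool). In that contrast 4752 of 14810 genes passed (32.1%), and 18 of the 64 did, which is 28.1% of the plasma genes and 0.379% of the flow genes and close to the background. Of the 31 genes that rose with plasma at low flow 5 were higher and 3 lower, and of the 33 that fell 5 were higher and 5 lower. Angptl4 and Spp1 were higher in both, by 7.42 and 5.93 on the log2 scale at low flow. Eln, F2rl1 and Abca1 were lower in both, by -3.52, -2.64 and -1.80. Ctgf, Edn1 and Angpt2, lower with plasma, were higher at low flow, by 4.72, 2.48 and 7.60. Ptgs1 and Efemp1, higher with plasma, were lower at low flow, by -2.32 and -1.60. The direction was shared by 10 of these 18 genes.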

How the data were processed

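Polyadenylated RNA of each culture was sequenced as 150 bp paired-end reads. The submitters' processing notes name STAR 2.5.1b, RSEM 1.2.15 and the mm9 build. The authors deposited expected counts and RPKM for each library, with the gene's length and effective length as other columns. The deposited estimated counts were rounded to whole numbers, and 1 row without a gene name (0.0717 to 0.117% of counts) was left out; 170 columns of values were not used. Plasma was tested with edgeR 4.0.16 in R 4.3.3 (TMM scaling, default filter, quasi-likelihood test, additive model with added cells, Benjamini-Hochberg adjustment over all genes tested), and scripts were tested on simulated data. DESeq2 1.42.0, other scalings, filters and designs were alternatives. FPKM was computed from counts and effective length; the RPKM deposited by the authors was 1.02 to 1.09 times as high in the median. Counting intervals are exact (95%) and cover counting error only. Each culture is 1 library of 13975153 to 16394043 counts, in which a floor of 3 counts is 0.188 to 0.218 FPKM at 1 kb of effective length. RSEM divides reads that fit several genes among them, so near-identical copies are uncertain.

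Members and gene lists were chosen with earlier results of these data known. Genes named are the 12 per direction with the largest ratio common to both pairs and at least 50 counts in both higher libraries, up to 4 per list by adjusted p, Fn1, Rbfox2, Cd68, Pf4, and the 5 with the smallest p for the interaction. Outside that rule, and named after their values were seen, are the called genes beyond it, the defining endothelial, macrophage, platelet and smooth muscle markers (such as Pecam1, Cdh5, Tyrobp, Emr1 and Ppbp), Prl2c3, Klf2, Ifit3, Irf7 and the YAP/TAZ targets Ankrd1, Axl and Wwc2.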

Additional observations from a re-analysis of the deposited data

Results flagged for a closer look

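The interferon-stimulated genes are listed here because the effect of plasma had opposite signs in the 2 pairs of cultures. Their median log2 ratio was 0.27 for plasma over untreated and -1.82 for all additions over platelets and macrophages, and 20 of 25 genes were higher in the first pair and lower in the second. The difference was not tested for the list; gene by gene in edgeR, 13 of 25 were at an unadjusted p under 0.05 for the interaction and none passed adjustment. The value of -1.82 rests on a single library, that with all additions, and its library number falls with that of the untreated culture, so the interaction and that split cannot be told apart.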

How the results depend on the processing

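Each value rests on 1 library per culture, and the number of genes that passed moved with scaling, filter, tool and design. The 31 genes higher and 33 lower with plasma became 26 and 19 with RLE scaling, 19 and 18 with library totals alone, 145 and 141 without a filter on low counts, 9 and 10 with at least 50 counts in 2 libraries, and 156 and 153 with DESeq2. With plasma alone as the factor 0 and 0 passed, and in the fit of all 150 bp groups 32 and 26. Leaving out 1 culture, with plasma alone as the factor, gave 0 to 44 genes higher and 0 to 60 lower: 44 and 60 without the plasma culture, 6 and 0 without all additions, and 0 and 0 without the untreated or the platelets and macrophages culture, where 388 and 942 genes were at an unadjusted p under 0.05. The arm left with 1 library is there assumed to vary like the other. Of the 64 genes, 63 (all but Prl2c4) were also called by DESeq2 and 13 in the fit of all groups, where the sign was the same in 64. The interaction count of 0 became 12 with DESeq2 and was 0 in edgeR with RLE scaling, no filter and the fit of 48 hr pools and the line, where 558, 529 and 696 genes were at an unadjusted p under 0.05. The cause of these shifts was not tested.

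Of the medians of 33 lists, 12 (without the plasma culture) to 17 (without platelets and macrophages) moved by more than 1 SD of their 2 pair medians when 1 culture was left out, 5 with plasma alone as the factor and 1 to 3 under each other setting. With 1 culture left out, the log2 fold-change of Ccl6 ran from -4.88 to 10.08, the log2 fold-change of Pf4 from -6.76 to 5.71 and the log2 fold-change of Rbfox2 from -0.0390 to 0.57, each lowest without all additions, and the log2 fold-change of Cd68 from -0.31 (without the untreated culture) to 1.39. In the fit of all groups the log2 fold-change of Pf4 was -0.43. With the RPKM of the authors 60 of the 64 genes moved by less than 1 SD of their 2 pair ratios and 4 by more, with the sign of each as in the counts. The additive fit matches the 2 pairs of cultures, with and without added cells. By replicate number, no paired analysis was possible because each group holds 1 culture, so that the groups share fewer than 2 numbers.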
